A study of Mus musculus with 12 samples.

Results

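The 35 genes described here are Trp53, the mouse gene for the transcription factor p53, and 34 genes listed as p53 targets. Whether p53 switches on each of them in mouse was not tested. They were taken by exact gene symbol from the count table of all libraries. All 35 were found among its 43698 rows, and all 35 had enough reads to be tested with the 19525 genes that passed the filter on low counts. The tumours were grown from MC38, a mouse colon carcinoma line, injected under the skin of the left flank of C57BL/6J mice aged 8 weeks. The study asked what an antibody carrying a ruthenium catalyst against the checkpoint ligand PD-L1 (Ru-PD-L1) does together with a prodrug of doxorubicin (DOX). Bulk RNA-seq covered 6 groups with 2 libraries each. Ctrl mice received PBS, DOX mice 14 µg DOX (0.56 mg/kg), DPD mice 14 µg DPD (0.56 mg/kg), read here as the DOX prodrug, and RP mice 20 µg of the conjugate Ru-PD-L1 (that is 0.80 mg/kg), all into the peritoneum, every 3 days from day 9. R+X was read as the conjugate with DOX, since the letter X occurs in no other agent's name, and R+D as the conjugate with DPD. In these groups 14 µg of the drug was injected around the tumour 6 hours after the conjugate, whose dose in the combination is not given in the labels. R+X therefore differed from DOX, and R+D from DPD, also in the route of the drug. Averages over such comparisons hold this change too, and so does any comparison of the drug difference with and without the conjugate. Tumours were taken on day 20, and the labels do not say how long after the last injection this was.

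The protein p53 is kept low in unstressed cells by Mdm2, a ubiquitin ligase that p53 itself induces. DNA damage, for example by DOX, which traps topoisomerase II on DNA, frees p53 from Mdm2. The stabilised protein binds its response elements and induces genes for cell cycle arrest, apoptosis, DNA repair and metabolic control. This control acts mainly on the protein, so the level of Trp53 RNA does not measure p53 activity, while the RNA of its targets is the usual readout. MC38 is reported to carry missense changes in Trp53. The genotype of these tumours was not analysed here, and the RNA of a tumour also holds the RNA of the mouse's own stroma, vessels and immune cells. Fewer cells of a type and less RNA per cell cannot be told apart in such samples.

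Library totals ran from 46547114 to 56462259 counts. Levels are CPM, counts scaled to a common library size, after TMM scaling, a scaling by the bulk of genes. The library called DOX replicate 2 stood apart from DOX replicate 1, as described further on. Muscle markers (12 of 12 in the test) summed to 101 and 266 CPM in RP, to 27.4 and 354 CPM in R+D, and to between 11.0 and 28.7 CPM in the other libraries. Of the colon epithelial markers, Cdx2 was at 0 in all 12 libraries, Krt8 reached at most 0.309 CPM and Krt18 at most 0.134 CPM, while Cdh1 lay between 9.90 and 18.1 CPM. The defining markers Cdx2, Krt8 and Krt18 of the labelled tissue of origin were thus absent or near 0.

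Promoter sequence was not used directly to choose these genes. The list holds known p53 targets, however, and response elements are part of how such targets are known. A higher share of matches than in all genes therefore follows in part from the choice and is given as a description. The RefSeq promoter table (GRCm38.p6) held 36 windows for 27 of the 35 genes, each from 250 bases before to 50 after a transcription start. The canonical p53 response element, 2 decamers of 10 bases with 0 to 13 bases between them, was searched with at most 1 mismatch. The element reads the same on both strands, so the search covers both. It was found in 5 of the 36 windows (13.9%), against 359 of 32851 windows of all genes (1.09%). A match describes these letters and does not show binding in these tumours. The matches are shown as the sequences of this kind within the windows. The well-described elements of Cdkn1a lie farther upstream, outside its window. The Polk and Rps27l windows each belong to a start inside the gene, so their matches lie within the gene. The annotation places Polk at chr13:96480687-96542579 on the minus strand and Rps27l at chr9:66944624-66949522 on the plus strand. The decamers are in capitals, with up to 20 bases on each side, 5′ to 3′ on the gene's strand, and overlapping matches of Cdkn1a are given separately.
Cdkn1a (chr17:29090886-29090957, plus strand, 0 mismatches, 12 bases between the decamers, first base at -73 from the start): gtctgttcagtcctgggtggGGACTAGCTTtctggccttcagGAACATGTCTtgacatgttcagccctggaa
Cdkn1a (chr17:29090908-29090967, plus strand, 1 mismatch, 0 bases between, at -51): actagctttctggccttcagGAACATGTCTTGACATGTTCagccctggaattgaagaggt
Ccng1 (chr11:40755442-40755501, minus strand, 1 mismatch, 0 bases between, at -195): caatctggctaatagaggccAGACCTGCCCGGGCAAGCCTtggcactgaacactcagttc
Bax (chr7:45467070-45467130, minus strand, 1 mismatch, 1 base between, at -212): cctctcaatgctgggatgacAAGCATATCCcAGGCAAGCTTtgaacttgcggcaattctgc
Rps27l (chr9:66946276-66946335, plus strand, 1 mismatch, 0 bases between, at -117): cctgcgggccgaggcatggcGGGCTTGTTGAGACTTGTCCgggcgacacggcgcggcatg
Polk (chr13:96519378-96519437, minus strand, 1 mismatch, 1 base between, at -231): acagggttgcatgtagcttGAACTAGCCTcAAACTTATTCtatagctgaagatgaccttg
None of these 5 genes passed the edgeR test described next when all 12 libraries were used.

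The main question for these genes was whether DOX or its prodrug left a p53 target response in the tumours. None was detected on day 20. In a model fitted to all 12 libraries with edgeR's quasi-likelihood test, 0 of 420 tests (35 genes in 12 comparisons) reached a Benjamini-Hochberg adjusted p under 0.05 over all genes. In each drug group against Ctrl or RP, and in the average described next, 0 of all 19525 genes passed as well. The count of 0 is therefore that of all genes and is nothing particular to p53 targets. With each drug group set against its matching no-drug group (Ctrl or RP) and averaged, 0 of 35 genes passed, 0 had an unadjusted p under 0.05 (background 3.88% of all genes), and DESeq2 (background 0.0193%) and limma-voom called 0. The count at an unadjusted p depended on 1 library. Without DOX replicate 1 it was 3 higher (Rrm2b, Polk and Ccng1) and 7 lower (Trp53, Cdkn1a, Gadd45a, Psrc1, Plk3, Bax and Gdf15), beside 13.3% of all genes, and 0 passed the adjusted threshold (smallest edgeR adjusted p = 0.353). Without DOX replicate 2 it was 0, beside 4.14% of all genes. The median difference was 0.0348 on the log2 scale for the 35 genes and -0.0035 for all genes tested, with 19 genes above 0 and 16 below. The 8 libraries with a drug and the 4 without overlapped for all 35 genes. Full separation of 8 libraries from 4 is a strict demand, and the share of all genes that overlap was not computed. No conclusion is drawn from this overlap. Below, libraries lying wholly above or below those of other groups are a description, given without the share of all genes that do so. The 95% interval of the averaged difference lay within a 2-fold change each way for 34 of 35 genes, all but Perp, against 74.0% of all genes.

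**Figure D1:**
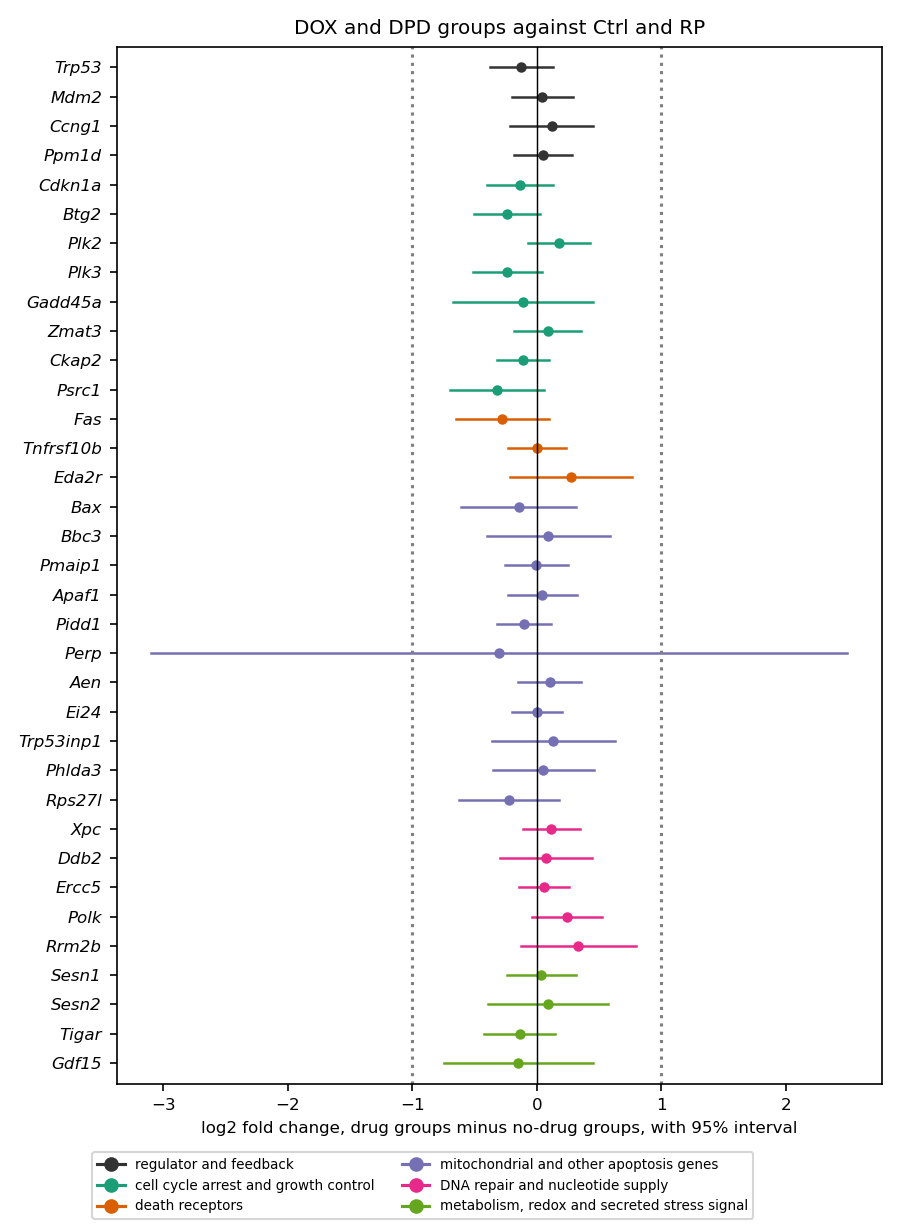
The averaged log2 fold change of the DOX and DPD groups against their matching no-drug groups (x axis) for each of the 35 genes (rows), with 95% intervals from the edgeR fit; colours give the role of the gene, and dotted lines mark a 2-fold change each way. Every interval crosses 0, and only that of Perp, from -3.10 to 2.49, leaves the 2-fold lines.

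Each drug group on its own gave the same count. DOX against Ctrl had 0 genes of the 35 called, with 1 higher and 1 lower at an unadjusted p under 0.05 (background 2.08%). Without DOX replicate 1 there were 5 higher and 8 lower (20.8% of all genes), and without DOX replicate 2 there were 0 (2.93%), with 0 called in either case. DPD against Ctrl had 1 higher (background 4.02%), and 3 higher and 2 lower without DOX replicate 1 (9.66%) or without DOX replicate 2 (9.74%). R+X against RP had 3 lower (background 8.68%), and R+D against RP had 0 (background 2.73%). DESeq2 called 0 of the 35 in DOX against Ctrl (background 0.00322%), DPD against Ctrl (0.0129%) and R+D against RP (0.0193%). It called Btg2 in R+X against RP, described below. Ctrl serves both drug-alone comparisons and RP both combined ones, so the values of a pair share their controls.

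The regulators came first, since they set the level of p53 itself. Trp53 stood at 529 and 552 CPM in Ctrl, 532 and 338 in DOX, 481 and 473 in DPD, 485 and 492 in RP, 479 and 471 in R+X, and 500.5 and 498 in R+D. DOX replicate 2 was the lowest library, and both Ctrl libraries lay above every DPD, RP, R+X and R+D library. The drug average was -0.13 ± 0.11 (standard error, as for all log2 fold changes here), with a 95% interval from -0.377 to 0.126. Mdm2, the feedback inhibitor, stood at 44.2 and 49.6 CPM in Ctrl, 41.6 and 52.2 in DOX, 46.2 and 48.8 in DPD, 41.9 and 54.1 in RP, 51.0 and 60.96 in R+X, and 45 and 45.8 in R+D. All groups overlapped with Ctrl except R+X, whose lower library still lay below RP replicate 2. The drug average of Mdm2 was 0.04 ± 0.11, an interval of 0.869-fold to 1.22-fold. Ccng1, which encodes cyclin G1, a target that recruits a phosphatase to Mdm2, was at 54.6 and 53.4 CPM in Ctrl and at 47.0 and 85.4 in DOX. It lay between 49.7 and 63.7 CPM in the other libraries, so its spread was set by the pair of DOX libraries. Ppm1d, the phosphatase Wip1 that dampens damage signalling, ranged from 16.2 to 22.6 CPM over all libraries. The drug averages of Ccng1 (0.12 ± 0.15) and Ppm1d (0.05 ± 0.10) had an edgeR adjusted p of 0.979.

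Among genes of arrest and growth control, Cdkn1a, the p21 inhibitor of cyclin-dependent kinases and the best known target, showed no higher level with a drug that the test could detect. It stood at 95.1 and 98.4 CPM in Ctrl (96.7 ± 2.38, SD, n = 2), 105 and 65.9 in DOX, 76.3 and 87.1 in DPD, 89.1 and 82.5 in RP, 89.2 and 93.4 in R+X, and 75.2 and 72.4 in R+D. Only DOX replicate 1 lay above Ctrl, and DOX replicate 2 was the lowest of all libraries. The drug average was -0.14 ± 0.12, with an interval of 0.755-fold to 1.10-fold. R+D against Ctrl gave -0.39 ± 0.20 (edgeR adjusted p = 0.349). A second row of the table, named Cdkn1a with a suffix, held 13.8% to 15.6% of the summed counts of both rows. With both rows added the drug average was -0.15.

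Gadd45a, a stress gene that binds PCNA and p21, stood at 78.4 and 93.2 CPM in Ctrl, 98.9 and 31.8 in DOX, 52.9 and 65.0 in DPD, 53.02 and 38.0 in RP, 69.5 and 58.7 in R+X, and 36.3 and 53.7 in R+D. The libraries of every group but DOX lay below both Ctrl libraries. R+D against Ctrl was -0.93 ± 0.42 and RP against Ctrl -0.92 ± 0.42, neither past the edgeR threshold (adjusted p = 0.325 and 0.238). Plk3, a kinase of the stress checkpoint, was at 25.8 and 20.4 CPM in Ctrl, 18.3 and 13.6 in DOX, 18.6 and 21.7 in DPD, 21.8 and 19.6 in RP, 20.2 and 16.5 in R+X, and 18.6 and 21.6 in R+D. Both DOX libraries lay below Ctrl, with a difference of -0.53 ± 0.21 (edgeR adjusted p = 1). Exons of Plk3 overlap Tctex1d4 on the other strand, and reads of overlapping genes may have been split, since no source used here gives the strand setting. The drug averages of Plk3 (-0.24 ± 0.12), Btg2 (-0.24 ± 0.12) and Psrc1, a spindle gene (-0.32 ± 0.17), were among the 6 of smallest p and had an edgeR adjusted p of 0.979. Psrc1 ranged from 4.17 CPM in DOX replicate 2 to 7.76 in RP replicate 1. Plk2, a kinase of the same family as Plk3, ranged from 125 to 192 CPM, Zmat3, an RNA-binding target, from 22.2 to 34.4, and Ckap2, a spindle gene, from 70.7 to 89.9. For none of these 3 was an unadjusted p under 0.05 found in any comparison.

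Of the death receptors, Fas and Tnfrsf10b bind ligands that immune cells display. Fas stood at 3.59 and 5.01 CPM in Ctrl, 3.33 and 4.90 in DOX, 3.69 and 3.64 in DPD, 6.02 and 6.79 in RP, 4.61 and 3.23 in R+X, and 5.66 and 6.18 in R+D. The RP and R+D libraries were the 4 highest, and R+X lay with the groups that had no conjugate. R+X against RP was -0.71 ± 0.28 (edgeR adjusted p = 0.478). Eda2r, a receptor for ectodysplasin A2, stood at 3.47 and 3.41 CPM in Ctrl, 3.62 and 5.71 in DOX, 3.60 and 4.58 in DPD, 2.84 and 5.95 in RP, 6.00 and 8.09 in R+X, and 3.86 and 3.49 in R+D. Both R+X libraries exceeded all others, by 1.03 ± 0.36 against Ctrl (edgeR adjusted p = 0.575). With the length trend of each library as a covariate this was 0.51. Tnfrsf10b, the mouse TRAIL receptor, ranged from 22.2 to 30.8 CPM, with both extremes in R+D, and had a drug average of 0.001 with an interval of 0.851-fold to 1.18-fold.

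Of the 11 genes of apoptosis, the BCL-2 family members did not differ past the test in any drug comparison. Bax, which forms pores in mitochondria, stood at 61.7 and 79.8 CPM in Ctrl, 96.3 and 41.2 in DOX, 61.2 and 47.3 in DPD, 63.0 and 41.4 in RP, 46.4 and 54.4 in R+X, and 48.6 and 47.5 in R+D. DOX held both the highest and the lowest library. Bbc3, which encodes PUMA, stood at 38.0 and 36.3 CPM in Ctrl, 49.7 and 20.1 in DOX, 33.9 and 28.4 in DPD, 29.4 and 18.1 in RP, 30.3 and 30.9 in R+X, and 34.4 and 26.1 in R+D. Outside DOX every treated library lay below Ctrl. Pmaip1, which encodes NOXA, stood at 57.6 and 67.3 CPM in Ctrl, 56.4 and 65.8 in DOX, 54.02 and 55.6 in DPD, 53.7 and 58.3 in RP, 59.8 and 79.3 in R+X, and 57.9 and 45.2 in R+D. DPD alone had both libraries below Ctrl among the drug groups. The drug averages were -0.15 ± 0.21 for Bax, 0.09 ± 0.22 for Bbc3 and -0.0060 ± 0.11 for Pmaip1. Their upper 95% limits were 1.24-fold, 1.498-fold and 1.19-fold.

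Apaf1, the scaffold of the apoptosome, ranged from 24.3 to 38.7 CPM. Aen, an apoptosis nuclease, ranged from 23.7 to 41.1 CPM, and both R+D libraries (36.0 and 41.1) exceeded all others, with 0.48 ± 0.19 against Ctrl (edgeR adjusted p = 0.314). Ei24, a target in the endoplasmic reticulum, stood at 59.6 and 63.8 CPM in Ctrl, 61 and 60.3 in DOX, 58.6 and 48.0 in DPD, 47.1 and 46.9 in RP, 51.0 and 56.8 in R+X, and 49.0 and 47.4 in R+D. All 6 libraries with the conjugate lay below both Ctrl and both DOX libraries. Rps27l, a ribosomal protein paralog, was at 79.8 and 138 CPM in Ctrl and between 61.2 and 106 in the other libraries. Its counts may be split with near-identical copies of its family.

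Of the DNA repair genes, 3 varied little over the libraries. Xpc, which recognises helix-distorting damage, ranged from 18.1 to 24.8 CPM, Ercc5, a nuclease of the same repair path, from 21.2 to 25.6, and Ddb2, a sensor of ultraviolet damage, from 2.65 to 3.97. Exons of Ddb2 overlap those of Acp2 on the other strand. Polk, a polymerase that copies past damaged bases, stood at 18.1 and 18.5 CPM in Ctrl, 20.9 and 30.0 in DOX, 23.0 and 28.8 in DPD, 24.2 and 30.0 in RP, 26.7 and 26.4 in R+X, and 29.2 and 26.0 in R+D. All 10 treated libraries lay above both Ctrl libraries, and the 5 comparisons share those controls. The share of all genes that separate so was not computed. The differences from Ctrl were 0.48 ± 0.21 for DOX, 0.50 ± 0.21 for DPD, 0.57 ± 0.21 for RP, 0.54 ± 0.21 for R+X and 0.59 ± 0.21 for R+D, and none passed edgeR (adjusted p from 0.182 to 1). With the length trend of each library, described further on, as a covariate they were 0.26 for DOX, 0.27 for DPD, 0.23 for RP, 0.15 for R+X and 0.26 for R+D. Rrm2b, the p53-induced subunit of ribonucleotide reductase, stood at 13.3 and 12 CPM in Ctrl, 11.4 and 26.99 in DOX, 16.9 and 18.6 in DPD, 14.3 and 19.6 in RP, 18.2 and 18.7 in R+X, and 21.3 and 15.5 in R+D. The drug averages were 0.24 ± 0.13 for Polk and 0.33 ± 0.21 for Rrm2b (edgeR adjusted p = 0.979 for each). Without DOX replicate 2 the DOX difference of Rrm2b turned to -0.15 and that of Polk was 0.19.

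Among genes of metabolism and secreted signals, Gdf15, a cytokine induced by stress, stood at 26.7 and 42.0 CPM in Ctrl, 35.3 and 11.8 in DOX, 29.9 and 19.2 in DPD, 20.0 and 17.8 in RP, 27.05 and 21.1 in R+X, and 15.8 and 24.1 in R+D. Both RP and both R+D libraries lay below Ctrl, and DOX covered most of the range by itself. Its drug average was -0.15 ± 0.27 (interval 0.596-fold to 1.36-fold). Sesn1 and Sesn2, sestrins that restrain the growth kinase mTORC1, ranged from 14.1 to 24.1 and from 22.1 to 45.3 CPM. Tigar, which lowers glycolytic flux, ranged from 9.84 to 13.9 CPM, with an interval for the drug average of 0.746-fold to 1.11-fold.

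**Figure D2:**
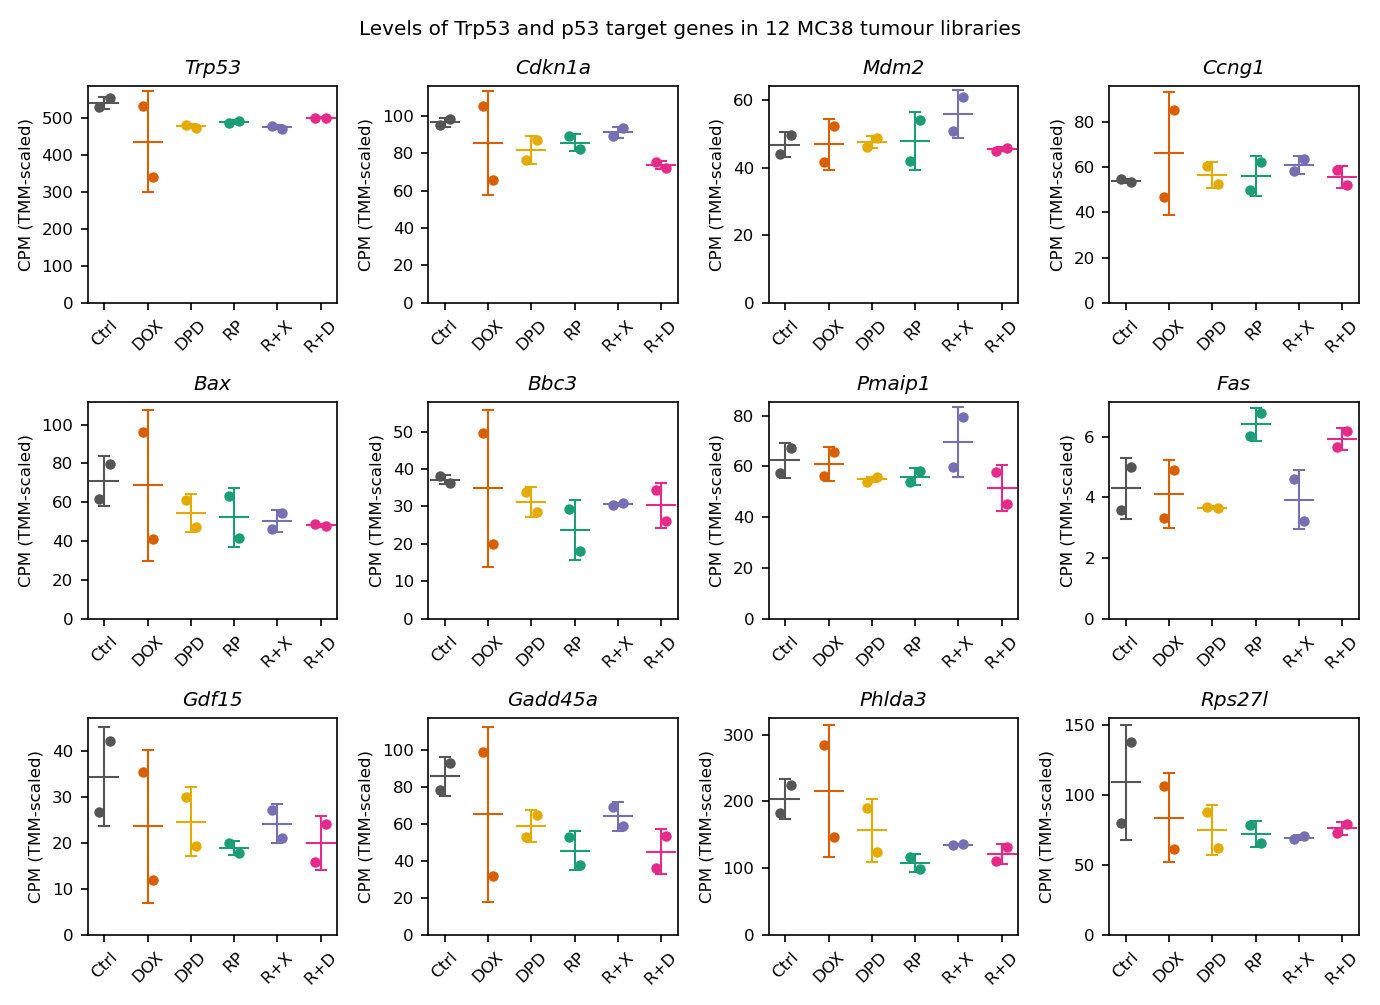
Level in CPM (y axis, from 0) of 12 of the genes in each library (points), by group (x axis), with the mean (bar) and SD (whiskers) of 2 libraries. In most panels the points of DOX lie farther apart than those of other groups, for example 98.9 and 31.8 CPM for Gadd45a, and no drug group's mean stands above that of Ctrl for Cdkn1a or Bax.

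DOX and DPD were compared at the same dose by mass, 14 µg, alone and with the conjugate, in 70 comparisons of the 35 genes. DPD is called a prodrug of DOX by the study's title, and the labels say nothing more of its structure. Equal mass need not be equal moles, so the doses are not known to match in amount of DOX. Alone, 0 genes differed at an adjusted p under 0.05 and 0 at an unadjusted one (background 4.29%), and DESeq2 (background 0.0258%) and limma-voom called 0 of the 35. At an unadjusted p under 0.05 there were 9 without DOX replicate 1 (8.83% of all genes), 6 without DOX replicate 2 (18.5%) and 3 without DPD replicate 1 (7.36%), and 0 passed the adjusted threshold in each case. The smallest p-values belonged to Sesn1 (-0.39 ± 0.20, DPD minus DOX), Btg2 (0.37 ± 0.20) and Pidd1 (0.29 ± 0.16), all at an edgeR adjusted p of 0.979. With the conjugate, R+D against R+X had 2 genes higher and 2 lower at an unadjusted p under 0.05 (background 5.27%) and 0 past the adjusted threshold, and 4 higher and 4 lower without DOX replicate 1 (6.87%) or DOX replicate 2 (6.88%). Pidd1 differed by 0.69 ± 0.16 (edgeR adjusted p = 0.820, DESeq2 adjusted p = 0.0494), Btg2 by 0.57 ± 0.20, Eda2r by -0.94 ± 0.36 and Pmaip1 by -0.43 ± 0.19. With the muscle score as a covariate Eda2r was at -0.47 and Pmaip1 at -0.11. The DESeq2 background of that comparison was 0.223%. For Cdkn1a the intervals were -0.506 to 0.373 alone and -0.746 to 0.134 with the conjugate. Of the 70 intervals, 57 lay within a 2-fold change each way (background 56.3% alone and 58.2% with the conjugate), and a missed threshold does not show that the compounds act alike.

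The lowest edgeR adjusted p-values of the whole set came in RP against Ctrl and in the conjugate's average over the drug settings. By DESeq2 the lowest was that of Btg2 in R+X against RP (adjusted p = 0.0016), where both groups had the conjugate. RP against Ctrl had 4 genes higher and 2 lower at an unadjusted p under 0.05, beside a background of 21.4% of all genes (6 each way without DOX replicate 1 or DOX replicate 2, beside 29% of all genes, and 3 higher without RP replicate 2, beside 10.6%), and 3 genes of all 19525 passed edgeR (0.0154%), none of them among the 35. Averaged over the 3 drug settings, the conjugate had 4 higher and 3 lower (background 20.3%), and again 0 of the 35 passed while 3 of all genes did (0.0154%). The share of these genes at a low p was therefore close to that of all genes. DESeq2 called 3 of the 35 in RP against Ctrl (background 6.78%) and 2 in the average (background 5.46%), and limma-voom called 0.

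Btg2, an antiproliferative gene that is also an early response gene in lymphocytes, stood at 5.55 and 5.11 CPM in Ctrl, 5.58 and 5.20 in DOX, 6.82 and 7.15 in DPD, 11.0 and 9.26 in RP, 5.24 and 5.07 in R+X, and 6.98 and 8.28 in R+D. RP was the highest group, and R+X lay at the level of Ctrl. RP against Ctrl was 0.93 ± 0.20 (edgeR adjusted p = 0.127, DESeq2 adjusted p = 0.0024). R+X against RP was -0.97 ± 0.20 (edgeR adjusted p = 0.204, DESeq2 adjusted p = 0.0016, DESeq2 background 1.81%). R+D against RP was -0.41 ± 0.20 (edgeR adjusted p = 1). The drug difference with the conjugate minus that without was -0.89 ± 0.24 (edgeR adjusted p = 0.859), in a comparison with 0 higher and 2 lower of the 35 at an unadjusted p under 0.05 (background 4.85%).

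Pidd1, a death domain gene of the PIDDosome, which activates caspase-2, stood at 19.0 and 16.0 CPM in Ctrl, 16.1 and 14.0 in DOX, 17.2 and 19.5 in DPD, 25.2 and 23.8 in RP, 17.98 and 17.1 in R+X, and 29.0 and 27.6 in R+D. The RP and R+D libraries lay above all 8 others. R+D against Ctrl was 0.69 ± 0.16 (edgeR adjusted p = 0.314, DESeq2 adjusted p = 0.0201, DESeq2 background 1.3%), RP against Ctrl 0.48 ± 0.16 (edgeR adjusted p = 0.170) and R+X against RP -0.48 ± 0.16 (edgeR adjusted p = 0.377). The conjugate average was 0.44 ± 0.09 (edgeR adjusted p = 0.145, DESeq2 adjusted p = 0.0035). R+D against Ctrl had 5 genes higher and 3 lower at an unadjusted p under 0.05 (background 15.4%), and R+X against Ctrl 3 higher and 0 lower (background 6.00%).

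Trp53inp1, a stress protein of p53 signalling and autophagy, stood at 2.18 and 1.95 CPM in Ctrl, 2.34 and 4.86 in DOX, 3.23 and 3.50 in DPD, 6.27 and 5.52 in RP, 3.85 and 3.86 in R+X, and 3.25 and 5.89 in R+D. Every treated library lay above both Ctrl libraries. RP against Ctrl was 1.51 ± 0.37 (edgeR adjusted p = 0.128, DESeq2 adjusted p = 0.0073) and R+D against Ctrl 1.14 ± 0.37 (edgeR adjusted p = 0.314). The R+D value was 0.64 without R+D replicate 2. Phlda3, which blocks Akt at the membrane, went the other way, at 182 and 225.4 CPM in Ctrl, 286 and 146 in DOX, 190 and 124 in DPD, 117 and 98.3 in RP, 135 and 136 in R+X, and 111 and 132 in R+D. All 6 libraries with the conjugate lay below Ctrl. RP against Ctrl was -0.92 ± 0.30 (edgeR adjusted p = 0.167, DESeq2 adjusted p = 0.0433), and the conjugate average -0.65 ± 0.17 (edgeR adjusted p = 0.157, DESeq2 adjusted p = 0.0115), which was -0.24 with the length trend as a covariate. Smaller differences of the conjugate average were those of Ei24 (-0.24 ± 0.08), Fas (0.40 ± 0.16) and Sesn1 (-0.27 ± 0.12), with edgeR adjusted p from 0.195 to 0.240.

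**Figure D3:**
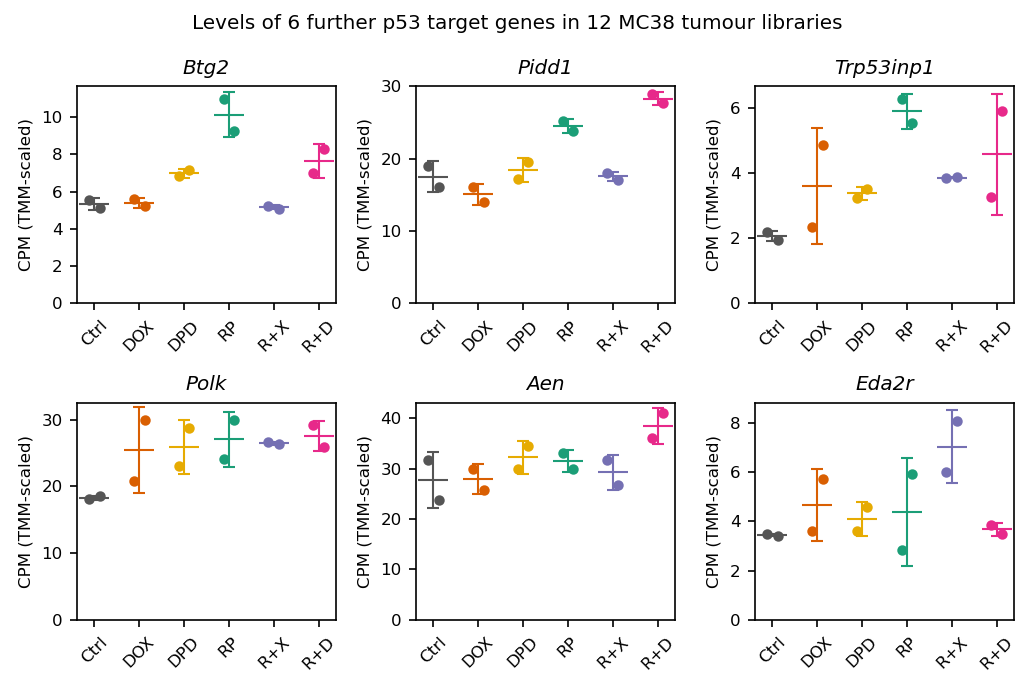
Level in CPM (y axis, from 0) of Btg2, Pidd1, Trp53inp1, Polk, Aen and Eda2r in each library (points), by group (x axis), with the mean (bar) and SD (whiskers) of 2 libraries. Btg2 is highest in RP (11.0 and 9.26 CPM), Pidd1 in R+D (29.0 and 27.6) and Eda2r in R+X (6.00 and 8.09).

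The number of genes called in the conjugate average depended on 1 library, for all genes as for the 35. The fit without DOX replicate 2 leaves 1 library in DOX. It gave conjugate averages of -0.79 ± 0.13 for Phlda3, 0.41 ± 0.09 for Pidd1 and 0.89 ± 0.19 for Trp53inp1. Those of Gadd45a (-0.64 ± 0.14), Bax (-0.52 ± 0.13) and Bbc3 (-0.46 ± 0.14) were lower with the conjugate. These 6 were picked by their low p in that fit. The direction was that of the full fit for all 6, but the 2 fits share every other library. That agreement was therefore largely set in advance and is no support, and the 6 are not read as particular to the 35. In an alternative fit of the RP and Ctrl libraries alone, 505 genes and, of the 35, Trp53inp1, Phlda3 and Gadd45a passed edgeR (adjusted p = 0.0398, 0.0409 and 0.0482). The share of all genes called was not computed for that fit, so the 3 calls are not read as particular to the 35. With the muscle score of each library as a covariate, RP against Ctrl was 0.70 for Btg2, 1.04 for Trp53inp1, -1.19 for Phlda3 and -1.54 for Gadd45a, R+D against Ctrl was 0.74 for Trp53inp1 and -1.40 for Gadd45a, and the conjugate averages of Trp53inp1 and Btg2 were 0.34 and 0.17. T cell markers (7 of 8 passed the filter, Trac being at 0 in 11 libraries) summed to 36.1 and 42.6 CPM in RP and 24.6 and 43.3 in R+D. Their sums were 18.2 and 23.2 CPM in Ctrl, 13.5 and 14.7 in DOX, 23.8 and 26.4 in DPD, and 11.6 and 20.9 in R+X. Endothelial markers (5 of 5 tested) summed to 91.2 and 124 CPM in RP, 51.1 and 69.0 in Ctrl and 60.0 to 84.9 in the other libraries, and neutrophil markers (4 of 5) to 9.56 and 19.5 CPM in RP, 2.58 and 5.18 in Ctrl and at most 8.40 elsewhere. Red blood cell markers (5 of 5) summed to 223.2 and 260.3 CPM in Ctrl, 347 and 368 in DOX, 25.3 and 124 in DPD, and 21.7 to 87.7 in the 6 libraries with the conjugate. The part of these cells in the values of the 35 genes was not tested.

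Other genes of the pathway were read from lists fixed beside the 35 genes. Of 18 tested genes upstream of p53 (kinases, cofactors and inhibitors), 19 further p53 targets and 20 cell cycle genes that p53 represses through p21 and the DREAM complex, 0 passed edgeR in any comparison. With the drugs averaged, medians were 0.0603, 0.0109 and -0.0408, beside -0.0035 for all genes. At an unadjusted p under 0.05 stood 0, 1 and 0 of them (background 3.88%), the 1 being Dram1, an autophagy gene (-0.34 ± 0.14). In RP against Ctrl, 5 upstream genes were higher and 2 lower at that p, among them Atm, the kinase of double-strand breaks (1.15 ± 0.36), Kat5, an acetyltransferase (-0.59 ± 0.17), and Rchy1, a ubiquitin ligase (-0.61 ± 0.19). Of the further targets 2 were higher and 3 lower, with Dram1 at 0.94 ± 0.24 and Tap1, a peptide transporter of antigen presentation, at 0.81 ± 0.22. Of the repressed cell cycle genes 6 were higher and 0 lower, led by Mki67, the Ki-67 gene (1.27 ± 0.29), Cenpf (0.87 ± 0.24) and Top2a, the topoisomerase that DOX traps (0.80 ± 0.21). The background of that comparison was 12% higher and 9.38% lower, and edgeR adjusted p-values of these genes ran from 0.127 to 0.163. Mki67 stood at 257 and 188 CPM in Ctrl and at 498 and 575 in RP, with 211 and 367 in the DOX libraries.

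The pair of DOX libraries differed in these genes more than any other pair. Between them 16 of 35 genes differed by over 1.5-fold, against 44.3% of all genes. In the other groups 2 to 4 of the 35 differed that much, and 17.1% to 24.7% of all genes. DOX replicate 2 was lower for Gadd45a (-1.64 on the log2 scale), Gdf15 (-1.58), Bbc3 (-1.31), Bax (-1.22), Phlda3 (-0.97) and Rps27l (-0.79), and higher for Perp (2.43), Rrm2b (1.24), Trp53inp1 (1.04) and Ccng1 (0.86). It held the lowest level of all 12 libraries for 11 genes. The difference went with transcript length, taken as the longest transcript of each gene in GENCODE M21. Across the 35 genes, the Spearman correlation of a library's deviation from the mean with length was -0.59 in DOX replicate 1 and 0.54 in DOX replicate 2. Of the genes at least as long as Polk (4225 bases), Polk (0.52), Apaf1 (0.53), Zmat3 (0.63), Eda2r (0.65), Trp53inp1 and Rrm2b were higher in DOX replicate 2. Aen (-0.22) was lower. Of the 10 genes under 2000 bases 8 were lower in DOX replicate 2, with a median of -0.88, and of the 25 longer ones 13 were lower, with a median of -0.0173.

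**Figure D4:**
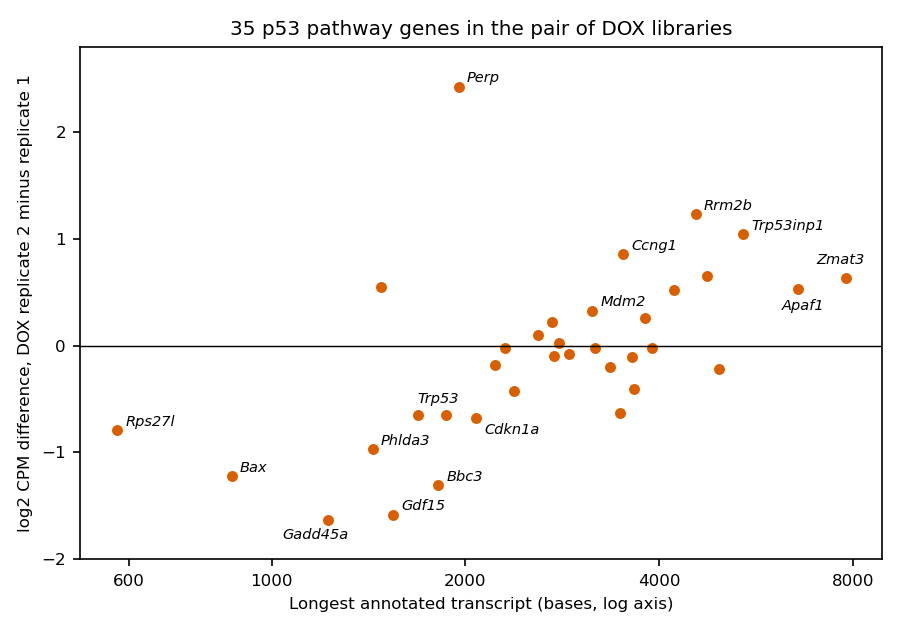
The log2 difference in CPM between DOX replicate 2 and DOX replicate 1 (y axis) against the longest annotated transcript in bases (x axis, log scale), 1 point per gene for the 35 genes. Short transcripts such as Bax (-1.22) and Gadd45a (-1.64) lie below 0 and some long ones such as Rrm2b (1.24) above it, while 13 of the 25 genes of 2000 bases or more are below 0 and the short genes Fas (0.55) and Perp (2.43) above.

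Length trends were present in other libraries too. Across 16252 genes, the Spearman correlation of a library's deviation from the mean with transcript length was -0.28 and -0.47 in Ctrl, -0.42 and 0.32 in DOX, -0.37 and 0.37 in DPD, 0.0453 and 0.31 in RP, 0.32 and 0.23 in R+X, and 0.28 and 0.0738 in R+D. These points are genes that share a library and are given as a description. Both Ctrl libraries thus leaned to short transcripts. The correlation was above 0 in all 6 conjugate libraries, though near 0 in RP replicate 1 (0.0453) and R+D replicate 2 (0.0738). DOX replicate 2 (0.32) and DPD replicate 2 (0.37), without the conjugate, leaned to long transcripts as well. With this trend as a covariate, RP against Ctrl was -0.31 for Phlda3 and -0.36 for Gadd45a, while Btg2 (0.98), Pidd1 (0.47) and Trp53inp1 (1.23) stayed nearer to their values, and Phlda3 in R+X against Ctrl turned from -0.59 to 0.13. Phlda3 and Gadd45a have short transcripts (1435 and 1223 bases) and Btg2 (2743), Pidd1 (3357) and Trp53inp1 (5404) longer ones. Long transcripts moved as well, as the values of Polk (4225 bases) and Eda2r (4752 bases) in R+X against Ctrl show. Over all 35 genes the covariate moved RP against Ctrl by a median of 0.535 for the 10 genes under 2000 bases and of -0.025 for the 25 longer ones. The length trend and the conjugate cannot be fully told apart, because Ctrl and the conjugate groups differ in it.

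Perp, a p53 target and a protein of desmosomes, the junctions of skin cells, was the most variable of the 35. It stood at 4.04 and 1.11 CPM in Ctrl, 1.21 and 6.70 in DOX, 6.03 and 0.138 in DPD, 0.395 and 21.8 in RP, 6.08 and 0.115 in R+X, and 0.147 and 18.7 in R+D. Within 4 of the 6 groups the pair differed by over 10-fold, and no comparison passed edgeR. Its drug average was -0.30 ± 1.26. Dsp, the desmosome gene desmoplakin, was at 18.2 CPM in the second RP library and 23.3 in the second R+D library, those where Perp was highest, and at most 4.49 in the others. Krt5, a keratin of basal skin cells, was at 42.4 and 7.04 CPM in those 2 libraries and at 0 to 11.0 in the others. The whole skin list (9 of 9 genes tested, Perp left out) summed to between 318 and 549 CPM, most of it Krt14 (259 to 408 CPM). In Ctrl the list summed to 400 and 467 CPM, in DOX to 318 and 449, in DPD to 403 and 488, in RP to 413 and 549, in R+X to 377 and 437, and in R+D to 360 and 457. Other genes of the list did not follow Perp in R+D replicate 2, where Krt1 was at 0.0413 CPM, Lor at 0.103, Krtdap at 0.0207 and Krt10 at 7.97, against 49.0, 9.89, 7.58 and 34.2 in RP replicate 2. The part of skin in the level of Perp was not tested.

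**Figure D5:**
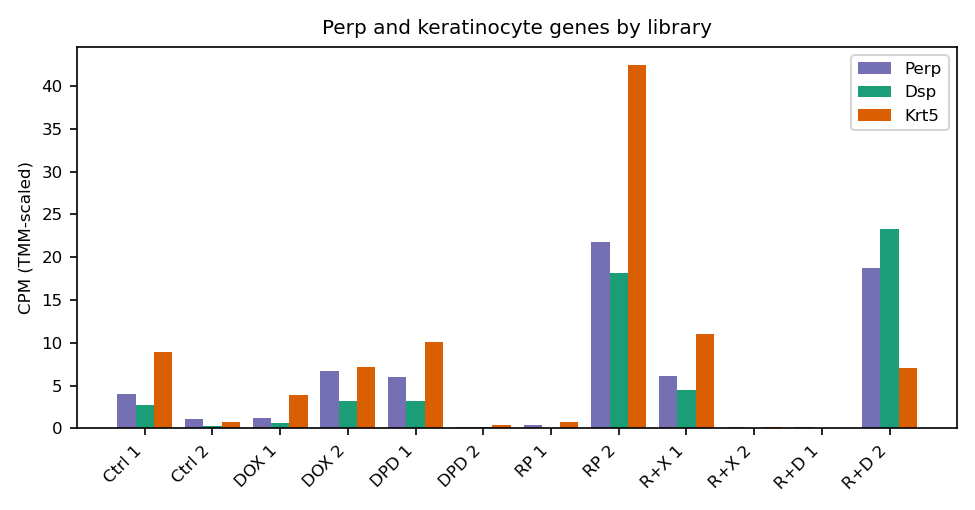
Level in CPM (y axis, from 0) of Perp, the desmosome gene Dsp and the keratin gene Krt5 in each of the 12 libraries (x axis). Perp and Dsp are both highest in RP replicate 2 (21.8 and 18.2 CPM) and R+D replicate 2 (18.7 and 23.3 CPM), while Krt5 is at 42.4 and 7.04 CPM there. Both skin genes were chosen after their values were seen, and Krt1, Lor and Krtdap are near 0 in R+D replicate 2.

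The median SD within groups was 0.205 on the log2 scale for the 35 genes, against 0.302 for all genes tested. It lay above that value for 11 genes, Perp (3.41), Gdf15 (0.567), Gadd45a (0.535), Bbc3, Sesn2, Bax, Rrm2b, Trp53inp1, Eda2r, Rps27l and Phlda3 (0.359), and the median range of group means was 0.429 against 0.611. The highest library exceeded the lowest by a median of 1.75-fold, from 1.21-fold for Ercc5 to 190-fold for Perp, and by over 2-fold for 14 genes. Over the 12 comparisons 22 genes never had an unadjusted p under 0.05. The 13 that did were Btg2 in 6 comparisons, Pidd1, Trp53inp1 and Polk in 5 each, Ei24 and Phlda3 in 3 each, Fas and Eda2r in 2 each, and Plk3, Gadd45a, Pmaip1, Aen and Sesn1 in 1 each. The share of all genes with such a p in any of the 12 comparisons was not computed. In single comparisons that share ran from 2.08% (DOX against Ctrl) to 21.4% (RP against Ctrl). The comparisons also share libraries, so these counts are a description only.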

How the data were processed

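RNA of whole tumours was prepared with TRIzol and the NEBNext Ultra kit, per the labels' protocols. The tools named, per the submitters' processing notes, were HISAT2 2.1.0, StringTie 1.3.5 and DESeq2, on GRCm38. No source used here gives their roles, the annotation or the strand setting. What the authors deposited were whole-number counts, not normalised, and the 12 per-library files equalled the columns of the table, which had 42803 distinct gene names in 43698 rows.

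Groups came from the agent label. If R+X and R+D were read the wrong way round, their values would change places. Replicate numbers only name libraries in order of listing. Since no label says that the libraries of a group were different mice, a p-value reflects the spread of these samples, possibly only technical.

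Counts were fitted in R 4.3.3 with edgeR 4.0.16 (TMM, filterByExpr, quasi-likelihood test, 6 residual degrees of freedom, biological coefficient of variation 0.257), with all 6 groups in 1 model. P-values were adjusted over the 19525 genes tested and called under 0.05. Standard errors and 95% intervals come from the same test. The drug average is the mean of the drug difference without conjugate (DOX and DPD against Ctrl) and with it (R+X and R+D against RP), and the conjugate average is the mean of RP against Ctrl, R+X against DOX and R+D against DPD. The method was tested on simulated counts. The alternatives tried were scaling by RLE, testing without a filter on low counts, DESeq2 1.42.0, limma-voom 3.58.1, each library left out, the compared groups alone, muscle and skin scores as covariates and CPM from library totals. Added after seeing the data were summed name copies, a separate reading of the fit without DOX replicate 2 and the length trend as a covariate.

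The members, lists and tests were chosen with earlier results of these data known. Full values are given for Trp53, Cdkn1a, Mdm2, Ccng1, Bax, Bbc3, Pmaip1, Fas, Gdf15 and Gadd45a, for members called, for the 6 of smallest p in the drug average and for up to 3 each way in other comparisons. Other members are given by range, and of each other list up to 4 genes of smallest p are named. Exons of 8 of the 35 genes overlap another gene (Cdkn1a, Plk3, Gadd45a, Bax, Ei24, Ddb2, Rrm2b and Tigar), so their counts are uncertain without the strand setting. Promoters of 8 genes (Ddb2, Perp, Pmaip1, Rrm2b, Tnfrsf10b, Trp53inp1, Xpc and Zmat3) were not analysed here.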

Additional observations from a re-analysis of the deposited data

How the results depend on the processing

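No paired analysis was possible because the labels number no replicates. Of 1674 values of named members under the alternatives, 27 changed sign and 14 passed the threshold only in the alternative. Since no member passed it with all libraries, none could lose it. Member medians stayed between -0.132 and 0.172 over all comparisons and alternatives. DESeq2 called 1124 genes and 3 members in RP against Ctrl, 905 and 2 in the conjugate average, 311 and 1 in R+X against RP, 224 and 1 in R+D against Ctrl, and 41 and 1 in R+D against R+X. It called 20 genes in drug by conjugate, 8 in DPD against DOX, 6 in the drug average, 6 in R+D against RP, 4 in DPD, 3 in R+X and 1 in DOX against Ctrl. With only the compared groups, edgeR called 505 genes and 3 members in RP against Ctrl, 8 genes in R+D, 6 in R+X and 2 in DOX against Ctrl, and 1 each in R+X against RP, R+D against RP and DPD against DOX. Without the low-count filter it called 14 genes in RP, 1 in DOX, 1 in DPD and 1 in R+D against Ctrl, 5 in R+X against RP and 13 in the conjugate average. Limma-voom called 16 genes in RP against Ctrl and 5 in R+X against RP. With the muscle or the skin score as a covariate, RP against Ctrl and the conjugate average had 0. With the length trend as a covariate 5 genes were called in RP, 1 in DOX, 2 in DPD and 1 in R+D against Ctrl, 72 in R+X against RP, 1 in the drug average, 0 in the conjugate average and 1 in drug by conjugate.

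Leaving out 1 library gave 0 to 48 genes called in RP against Ctrl (48 without DOX replicate 2), 0 to 5 in R+D against Ctrl, 0 to 7 in R+X against RP, 0 to 3233 genes and 0 to 6 members in the conjugate average (the highest without DOX replicate 2), and 0 to 1 in the other comparisons. A lone library left in a group is assumed to vary like the other groups.

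Drug averages near 0 changed sign. With the muscle covariate these were Mdm2 (-0.034), Ccng1 (-0.0202), Gdf15 (0.111) and Gadd45a (0.187), and Pmaip1 in R+X against RP (-0.108). With the length trend they were Mdm2 (-0.013), Bax (0.071), Gdf15 (0.112) and Gadd45a (0.0802), and Phlda3 in R+X against Ctrl (0.126). Leaving out 1 library gave drug averages of -0.031 to 0.141 for Mdm2, -0.0046 to 0.21 for Ccng1, -0.331 to 0.032 for Bax, -0.106 to 0.301 for Bbc3, -0.058 to 0.053 for Pmaip1, -0.398 to 0.032 for Gdf15 and -0.372 to 0.037 for Gadd45a. Rrm2b in DOX against Ctrl ran from -0.148 (without DOX replicate 2) to 1.09, and Phlda3 in DPD against DOX from -0.865 to 0.104 (without DOX replicate 1). The cause was not tested.

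Counting depth limited Perp most, with a lowest count of 6.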

Other observations

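Cdkn2a, which encodes the ARF protein that frees p53 from Mdm2 and the cell cycle inhibitor p16, was barely present. It stood at 0.0785 and 0.0929 CPM in Ctrl, 0 and 0.0405 in DOX, 0.0551 and 0.0589 in DPD, 0.490 and 0.297 in RP, 0.104 and 0.383 in R+X, and 0.275 and 0.661 in R+D. All 6 libraries with the conjugate lay above all 6 without it, although every value was under 1 CPM. The low-count filter asks for enough counts in 2 libraries, and Cdkn2a met it only through the conjugate groups, where it was higher. Its separation and fold change are therefore a description and no support for an effect of the conjugate, and the share of all genes that separate so was not computed. The conjugate average was 2.85 ± 0.61 on the log2 scale (edgeR adjusted p = 0.145), a fitted value that depends on the prior count at such levels.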
